A study of Mus musculus with 10 samples.

Results

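The mRNAs of the proteins of the cytosolic ribosome were examined in mouse livers, and 77 of the 16647 genes listed were taken as members of this family. They were the protein-coding symbols made of Rps (small subunit) or Rpl (large subunit) and a number, with *Rpsa*, that had at least 60 counts summed over all livers, so that no level difference between the groups entered the choice. Of 80 symbols of this form, 77 passed, 32 of the small and 45 of the large subunit. The other 3 were *Rpl39* with 16 counts in all, *Rpl39l* with 11 and *Rpl3l*, the paralogue of *Rpl3* known from muscle, with 51. *Rpl39* had 0 to 4 counts in a liver and *Rpl3l* 2 to 8. Neither the annotation nor the handling of reads with several positions is given in the sources used here. The low count of *Rpl39* is therefore not taken as its level in liver. *Rpl39l* had no count in any control liver and 8, 2, 0, 0 and 1 counts in MI-883 livers 1 to 5, at or under the floor of 3 counts in 4 of these 5 livers.

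The study sequenced liver RNA of 10 male humanized PXR-CAR-CYP3A4/3A7 mice from Taconic, which carry the human genes of these nuclear receptors and drug-metabolizing enzymes in place of the mouse ones. All mice ate a high-fat diet, and all were gavaged 3 times per week. The 5 control mice received the oil-based vehicle, and the 5 MI-883 mice received MI-883 at 5 mg/kg in that vehicle. MI-883 is described by the study as an agonist of human CAR that antagonizes human PXR, the receptors through which the liver senses foreign compounds. The mice were adults, and the labels give no age in weeks. The receptors are present in all 10 animals, so no liver here shows the effect of the compound without them. The question asked here was whether the mRNAs of the ribosome itself differed with treatment, and how they varied from liver to liver with transcript length.

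Ribosomal proteins are made in equal numbers and assembled with ribosomal RNA in the nucleolus, so their mRNAs are known to be held at similar, high levels. Most of these mRNAs begin with a C followed by an unbroken run of pyrimidines, the 5′ terminal oligopyrimidine (TOP) motif. Through this motif, LARP1 and the kinase complex mTORC1 are known to set how many of the mRNAs are translated, while transcription by RNA polymerase I sets the supply of ribosomal RNA. Proteins left without a partner are known to act elsewhere: RPL5 and RPL11 bind MDM2 and thereby stabilize p53.

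The TOP motif could be read for part of the family, and a few starts are shown because this 5′ end is the feature by which translation of the family is known to be set. RefSeq start regions on GRCm38.p6 were held for 58 of the 77 members, with 19 not matched. A start was counted when its first base was C and at least 4 further bases were C or T, and 13 of the 58 members had one (22.4%), against 2.94% of the 10612 tested genes with a start region. Within 10 bases of the start on either side, such a run was found for 35 of the 58 members (60.3%) and for 37.1% of the tested genes. In the following lines each window holds the 10 bases before and the 20 bases from an annotated start, 5′ to 3′ on the coding strand, with the pyrimidine run from the first transcribed base in capitals.
Rps6 (chr4:86857348-86857377, minus strand): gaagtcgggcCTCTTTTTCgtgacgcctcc
Rps18 (chr17:33955646-33955675, minus strand): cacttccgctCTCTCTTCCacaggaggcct
Rps27 (chr3:90213629-90213658, minus strand): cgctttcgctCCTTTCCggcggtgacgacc
Rps15a (chr7:118116128-118116157, minus strand): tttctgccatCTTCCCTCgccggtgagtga
Rpl15 (chr14:18270967-18270996, minus strand): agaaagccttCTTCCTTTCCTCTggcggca
Rpl35a (chr16:33056472-33056501, plus strand): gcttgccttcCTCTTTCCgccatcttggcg
Rpl38 (chr11:114668570-114668599, plus strand): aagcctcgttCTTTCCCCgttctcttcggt
The run was 9 bases long in *Rps6* and *Rps18*, 8 in *Rps15a*, *Rpl35a* and *Rpl38*, 7 in *Rps27* and 13 in *Rpl15*, the longest of the 13. For *Rpl35a* and *Rpl38* the start shown lies inside the annotated span of the gene, whose other transcripts begin further upstream. Over the 300 bases of the start region on both strands, CCGGAAG, the core of the ETS family motif, occurred in 39.7% of the 58 members and in 18.9% of the tested genes. TCTCGCGA occurred in 19.0% of the members and in 2.34% of the tested genes. TATAAA, the TATA box core, occurred in 10.3% and 9.43%. These matches are letters in a window and were not tied to any binding.

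In all 10 livers the members were abundant. They took 1.63%, 1.60%, 1.52%, 1.70% and 1.54% of all counts in control livers 1 to 5 and 1.77%, 1.58%, 1.49%, 1.57% and 1.26% in MI-883 livers 1 to 5. The groups overlapped, and MI-883 liver 5 had the lowest share while MI-883 liver 1 had the highest. Levels are given as CPM, a gene's counts scaled to the TMM-adjusted size of each library, and levels of different genes are compared only per kilobase of annotated transcript. On that per-length scale *Rpl41*, which encodes the smallest of these proteins, was the highest at 855 CPM per kb, followed by *Rps18* at 600, *Rps2* at 586, *Rps14* at 527 and *Rpl10* at 510, and the median member was at 229. *Rpl32l* was the lowest at 2.29 CPM per kb, with *Rps15a* at 22.1, *Rpl7l1* at 23.0, *Rpl21* at 44.2 and *Rps20* at 45.6. The annotated transcripts of *Rps15a* (5179 bases) and *Rps20* (3706 bases) are long forms, which lowers their value per kilobase. Those of *Rpl21* (1856 bases) and *Rpl7l1* (2606 bases) also exceed the members' median of 780 bases.

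Reads from this family can be hard to place. Of the 100-base stretches of a member's transcript, a median of 36.9% also occurred in a transcript of another gene (pseudogenes included), and 29 members shared at least 50% while 7 shared none. *Rps27* shared 98.4%, with *Rps27rt* as the partner, *Rpl10* 91.6% and *Rps6* 83.6%. How reads with several positions were counted is not given in the sources used here, so the levels of these genes are uncertain.

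**Figure D1:**
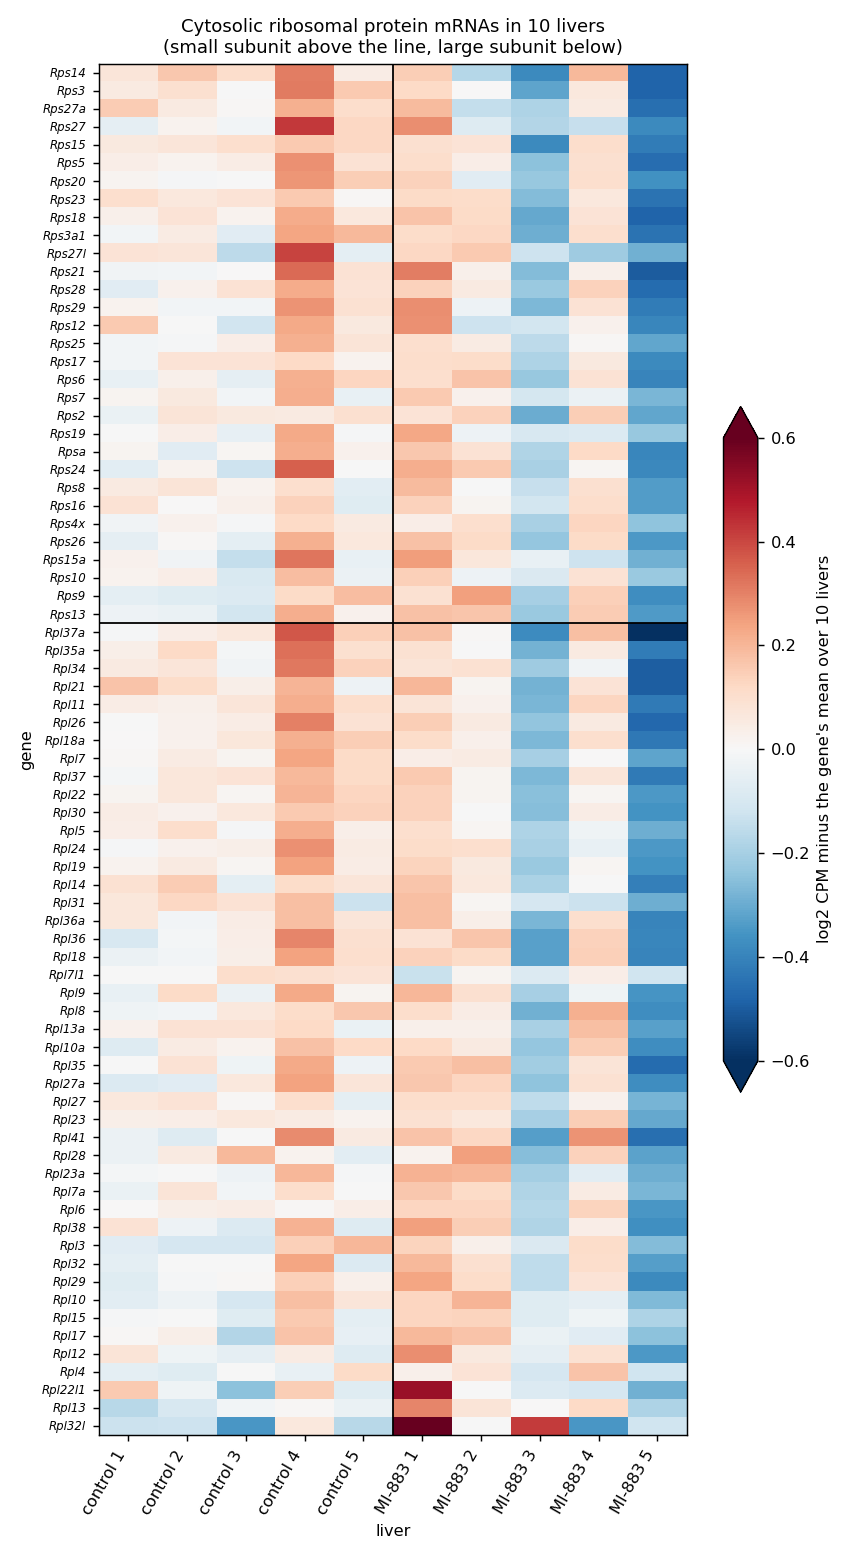
Level of 76 of the 77 ribosomal protein mRNAs (rows, small subunit above the line and large subunit below, each ordered by fold change) in the 10 livers (columns, controls left), as log2 CPM minus the gene's mean over the livers; red is above and blue below that mean, and colours stop at the ends of the bar. Nearly every row is red in control 4 and MI-883 1 and blue in MI-883 3 and MI-883 5, so the pattern runs by liver.

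No member passed the test between the groups. With edgeR's quasi-likelihood test across 13219 genes, 0 of the 77 members were higher and 0 were lower at an adjusted *P* under 0.05, while 1.03% of all tested genes passed. The lowest adjusted *P* of a member was 0.339, for *Rpl35a*. At an unadjusted *P* under 0.05 the count was also 0, where 15.6% of all tested genes passed, and DESeq2 called 0 members and 3.5% of the tested genes. The 5 control and 5 MI-883 values did not separate for any member, against 3.98% of all tested genes. The point estimates nevertheless leaned to one side. The fold change was below zero for 70 of 77 members, where 49% of all tested genes lay below zero, and the median log2 fold change was −0.10 for the members and 0.0045 for all tested genes. The small subunit had a median of −0.11 (31 of 32 below zero) and the large subunit −0.10 (39 of 45 below zero). These members rise and fall together from liver to liver, as described further on, so 70 are not 70 separate observations. MI-883 livers 3 and 5 had the lowest mean levels of the members. Without them the split turned to 25 below and 52 above zero with a median of 0.041. In that fit 50.7% of all tested genes lay below zero. Both livers were chosen after the data were seen, and leaving out the lowest livers of a group raises its mean by construction. The turn therefore does not test the lean. The 95% interval of the log2 fold change lay inside ±0.5 for 74 of the 77 members, and in no member did it lie wholly below zero.

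**Figure D2:**
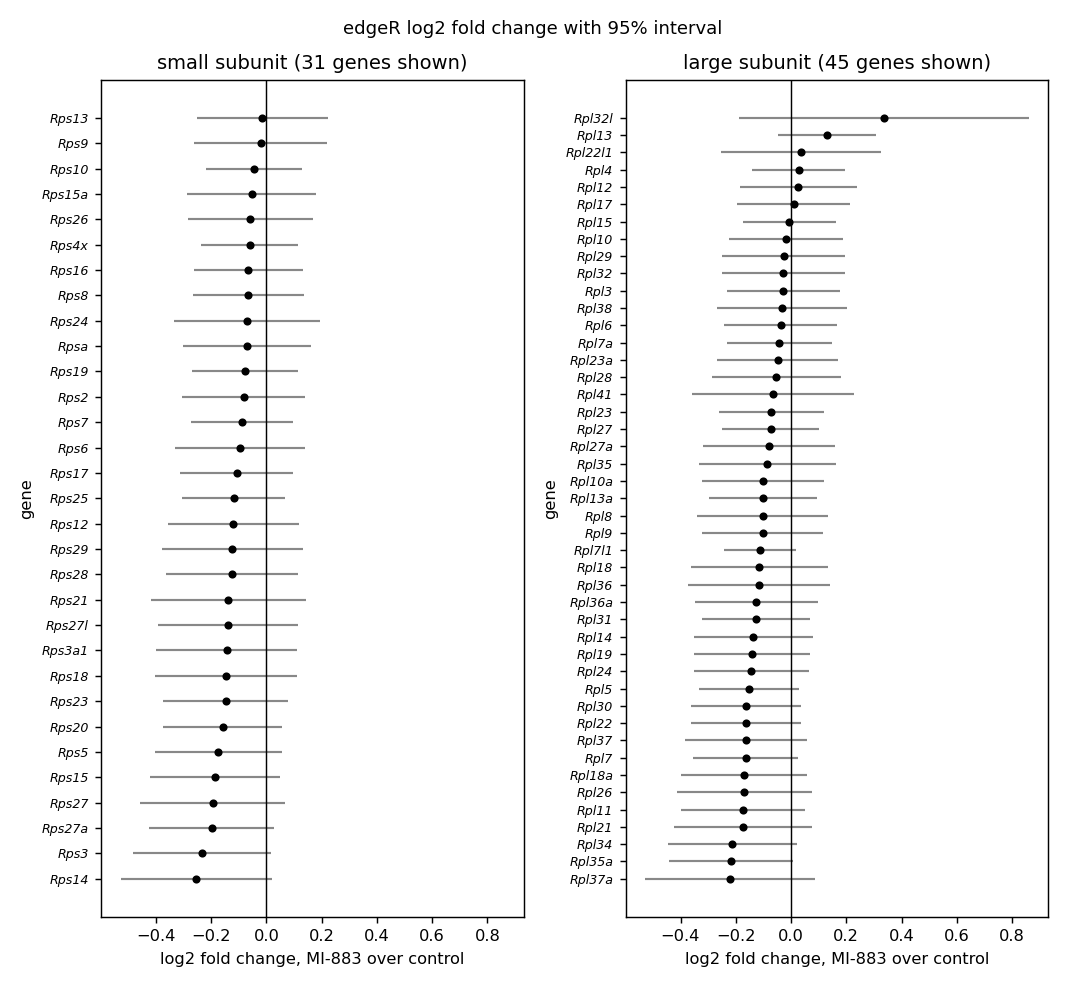
edgeR log2 fold change (MI-883 over control) of 76 of the 77 members with its 95% interval, small subunit left and large subunit right, 5 livers a group. Every interval drawn crosses zero, and the points drawn run from −0.25 (*Rps14*) to 0.34 (*Rpl32l*).

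Among proteins of the small subunit, *Rps6*, the substrate of S6 kinase, measured 291, 307, 290, 349 and 329 CPM in control livers 1 to 5 and 322, 338, 257, 319 and 228 CPM in MI-883 livers 1 to 5. In 3 MI-883 livers the level lay within the control range, and in livers 3 and 5 it lay under it. Its log2 fold change was −0.10 (SE 0.110) with an edgeR adjusted *P* of 0.703. *Rps14*, which lies at the platform of the subunit and is the gene lost in the 5q− anaemia of humans, stood at 326, 347, 334, 384 and 320 CPM in controls and at 343, 275, 238, 355 and 222 CPM with MI-883. This was the lowest fold change of the family, −0.25 (95% interval −0.53 to 0.02, adjusted *P* = 0.349 by edgeR), and 2 of the 5 MI-883 livers still lay inside the control range. *Rps3*, at the mRNA entry channel, gave 337, 347, 324, 403 and 362 CPM in controls and 353, 325, 261, 339 and 232 CPM with MI-883, a log2 fold change of −0.23 (SE 0.115, adjusted *P* = 0.347 by edgeR). Again the values of livers 3 and 5 were the 2 below all controls. *Rps3* shared no stretch with another transcript.

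The other small subunit genes chosen by role did not pass the test either. *Rpsa*, which stabilizes the 40S particle and also serves as a laminin receptor, averaged 513 ± 38.5 CPM in controls and 488 ± 76.2 CPM with MI-883 (SD, n = 5), and *Rps19*, the gene most often mutated in Diamond-Blackfan anaemia, 172 ± 13.5 and 163 ± 19.8 CPM. *Rps25*, used by some viral internal entry sites, averaged 209 ± 13.8 and 193 ± 21.8 CPM, and *Rps4x*, encoded on the X chromosome, 136 ± 5.29 and 130 ± 15.2 CPM. The ubiquitin fusion gene *Rps27a* averaged 207 ± 11.5 and 181 ± 30.2 CPM with a log2 fold change of −0.20 (adjusted *P* = 0.383 by edgeR). In each of these 5 genes the SD among MI-883 livers was larger than among controls. The paralogue pair *Rps27* and *Rps27l*, the latter a p53 target, averaged 115 ± 16.4 against 100 ± 17.6 CPM and 190 ± 29.4 against 172 ± 24.1 CPM, respectively.

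Within the large subunit, the pair that binds MDM2 did not pass the test. *Rpl5* measured 300, 315, 291, 341 and 300 CPM in controls and 313, 295, 258, 287 and 239 CPM with MI-883 (log2 fold change −0.15, SE 0.0843, adjusted *P* = 0.405 by edgeR). *Rpl11* measured 299, 296, 304, 337 and 312 CPM in controls and 306, 295, 239, 317 and 216 CPM with MI-883 (log2 fold change −0.17, SE 0.104, adjusted *P* = 0.443). In both genes MI-883 livers 3 and 5 were the lowest of all 10. *Rpl26*, which is known to promote translation of p53 mRNA, had 229, 234, 237, 283 and 244 CPM in controls and 255, 238, 195, 238 and 165 CPM with MI-883.

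The lowest fold changes of the large subunit were those of 3 short transcripts for small proteins. *Rpl37a* had 205, 211, 215, 267 and 227 CPM in controls and 232, 207, 158, 233 and 136 CPM with MI-883 (log2 fold change −0.22, SE 0.142, adjusted *P* = 0.478 by edgeR). *Rpl35a*, another gene of Diamond-Blackfan anaemia, had 110, 117, 107, 135 and 115 CPM in controls and 115, 107, 88.3, 112 and 80.5 CPM with MI-883, a log2 fold change of −0.22 (SE 0.104). *Rpl34* had a log2 fold change of −0.21 (SE 0.108, adjusted *P* = 0.362 by edgeR). In each of the 3 genes control 4 was the highest liver and MI-883 liver 5 the lowest.

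Several other large subunit genes chosen by role had smaller differences. *Rpl3*, at the peptidyl transferase centre, averaged 271 ± 27.9 and 266 ± 29.1 CPM, *Rpl4*, which lines the exit tunnel, 425 ± 23.1 and 433 ± 37.1 CPM, and *Rpl10*, which completes the 60S particle, 410 ± 33.4 and 405 ± 51.1 CPM (control and MI-883, SD, n = 5). Their log2 fold changes were −0.03 (95% interval −0.23 to 0.18), 0.03 (−0.14 to 0.20) and −0.02 (−0.22 to 0.19). *Rpl10a* and *Rpl38*, whose proteins are known to favour the translation of subsets of mRNAs, averaged 196 ± 13.0 against 183 ± 28.4 CPM and 87.2 ± 7.76 against 85.3 ± 14.3 CPM. *Rpl13a*, which also silences inflammatory mRNAs once released from the ribosome, averaged 193 ± 8.28 and 179 ± 24.6 CPM, and *Rpl29*, without which mice are small but viable, 140 ± 7.80 and 137 ± 22.4 CPM. *Rpl13* had the second highest fold change of the family, with 70.8, 74.3, 78.6, 79.9 and 77.3 CPM in controls and 97.3, 83.7, 79.5, 86.2 and 70.0 CPM with MI-883. Its values in 3 MI-883 livers exceeded every control, and the log2 fold change was 0.13 (SE 0.0824, adjusted *P* = 0.472 by edgeR).

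The large subunit also has paralogue pairs. *Rpl22*, which is needed for T-cell development, averaged 129 ± 7.34 and 116 ± 16.0 CPM, while *Rpl22l1* was at 40.5, 35.7, 30.7, 40.3 and 34.6 CPM in controls and 52.1, 36.4, 34.4, 33.9 and 29.8 CPM with MI-883. The value of MI-883 liver 1 was the only one above the control range for *Rpl22l1*, and without that liver its log2 fold change went from 0.04 to −0.12. *Rpl7* averaged 393 ± 26.9 and 351 ± 38.7 CPM, and *Rpl7l1*, a paralogue that acts in assembly of the large subunit, 62.3 ± 2.33 and 57.6 ± 3.13 CPM. For *Rpl7l1* the log2 fold change was −0.11 (95% interval −0.24 to 0.02, adjusted *P* = 0.392 by edgeR), and an exact two-sided permutation test of this gene alone gave *P* = 0.0476, unadjusted and the lowest of the 77 members. *Rpl32l*, the lowest member with 0.810, 0.812, 0.695, 0.927 and 0.790 CPM in controls, had 1.50, 0.885, 1.18, 0.696 and 0.816 CPM with MI-883. Its log2 fold change of 0.34 had the widest interval of the family, −0.19 to 0.86. *Rpl32l* entered the family as protein-coding by RefSeq, but no coding length was found for it in the GENCODE annotation used here.

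**Figure D3:**
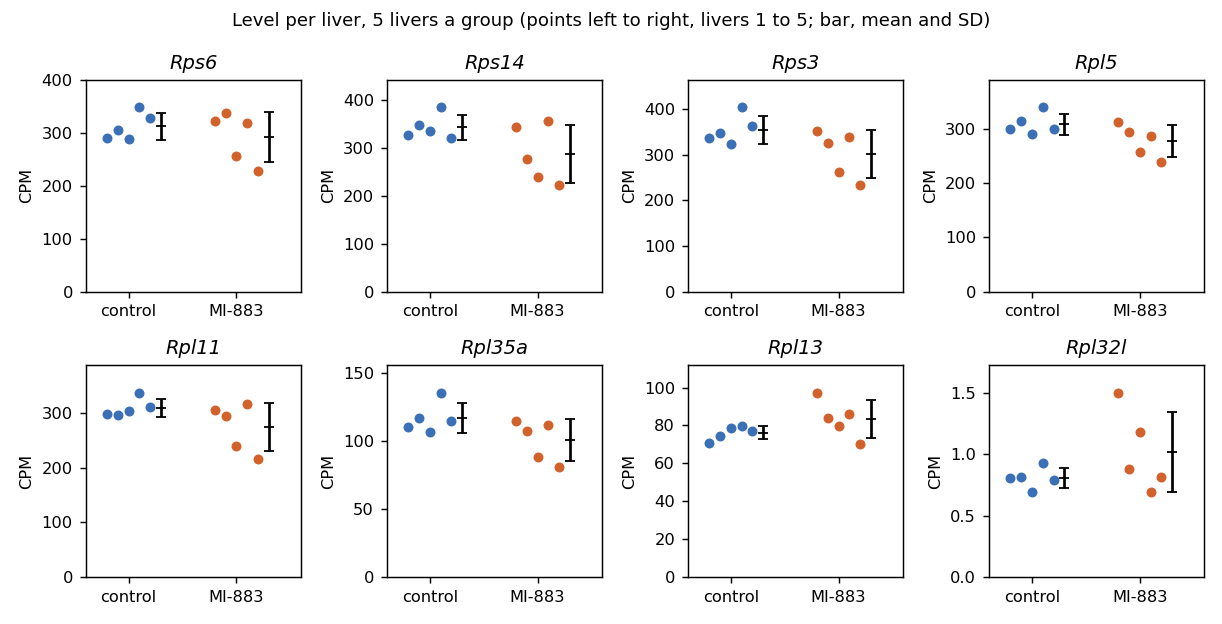
CPM in each liver for 8 members, with control livers in blue and MI-883 livers in orange, points from left to right for livers 1 to 5, and the mean with its SD beside them; all axes start at 0. In *Rps6*, *Rps14*, *Rps3*, *Rpl5*, *Rpl11* and *Rpl35a* the points of MI-883 livers 3 and 5 are the lowest of the 10 livers, while in *Rpl13* and *Rpl32l* the point of MI-883 liver 1 is the highest.

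The variation that dominated the family was between livers. For each liver the log2 CPM of a member was set against that member's mean over the 10 livers, and these deviations were averaged over the 77 members. The mean deviation was 0.0062, 0.027, −0.0065, 0.19 and 0.042 in control livers 1 to 5 and 0.16, 0.067, −0.19, 0.053 and −0.35 in MI-883 livers 1 to 5. The 2 lowest livers were both in the MI-883 group, and the 2 highest were 1 of each group. The SD over livers was 0.211 in the MI-883 group and 0.0816 in controls. In MI-883 liver 5, 0 of the 77 members lay above their own mean, and in MI-883 liver 3 only 3 did, while 76 did in control liver 4 and 76 in MI-883 liver 1. MI-883 liver 5 was the lowest liver for 74 members. The highest liver was control 4 for 47 members and MI-883 liver 1 for 18.

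The subunits moved as one. The mean deviations of the small and of the large subunit had a Pearson *r* of 0.995 over the 10 livers, and with the group means removed it was 0.996. Between pairs of members (2926 pairs) the median *r* over the livers was 0.846, and 98.6% of pairs were above zero, where the median over all pairs of tested genes was −0.0034. For the mitochondrial ribosomal proteins, also 2926 pairs, the median was 0.638 and 90.6% were above zero. After the mean of each group was removed, the median over members was 0.863. These correlations describe 10 shared libraries, in which all genes share depth and scaling, and they have no test. Counting noise also differs between the sets. Their median levels were 181 CPM for members, 33.9 CPM for mitochondrial ribosomal proteins and 14.8 CPM for all tested genes. *Rpl19* and *Rps18* followed the mean of the other members most closely (*r* = 0.988 and 0.987), whereas among the members named here *Rpl32l* (0.113), *Rpl7l1* (0.477), *Rpl4* (0.516) and *Rpl13* (0.578) followed it least. These genes were picked by that value.

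The members' level went with a property of the rest of the transcriptome. For each liver, the deviations of the tested genes outside the family were regressed on the log2 of transcript length, which gives a slope that is negative where short transcripts are relatively abundant. The slope was −0.024, −0.010, 0.011, −0.085 and −0.0031 log2 units per doubling of length in control livers 1 to 5 and −0.060, −0.0097, 0.086, −0.010 and 0.104 in MI-883 livers 1 to 5. The livers with the lowest members, MI-883 3 and 5, thus had the steepest rise with length, and the livers with the highest members, control 4 and MI-883 1, the steepest decline. Over the 10 livers the mean deviation of the members and the slope had *r* = −0.966 (Spearman's rho −0.794), and *r* = −0.963 with the group means removed. Without the 2 livers farthest in slope, MI-883 5 and MI-883 3, *r* was −0.920. Leaving out each liver in turn gave −0.975 to −0.962. The first of these checks keeps control 4 and MI-883 1, the livers at the other end, and the second keeps at least 3 of these extreme livers. The livers between the ends had slopes of only −0.024 to 0.011 and mean deviations of −0.0065 to 0.067. Neither check shows whether the relation holds among those livers, and no correlation over them alone was computed. With the slope of coding length in place of transcript length *r* was −0.941, and with total-count scaling −0.880. The slope of GC content (*r* = −0.105) and the library total (*r* = 0.285) went with the members far less.

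**Figure D4:**
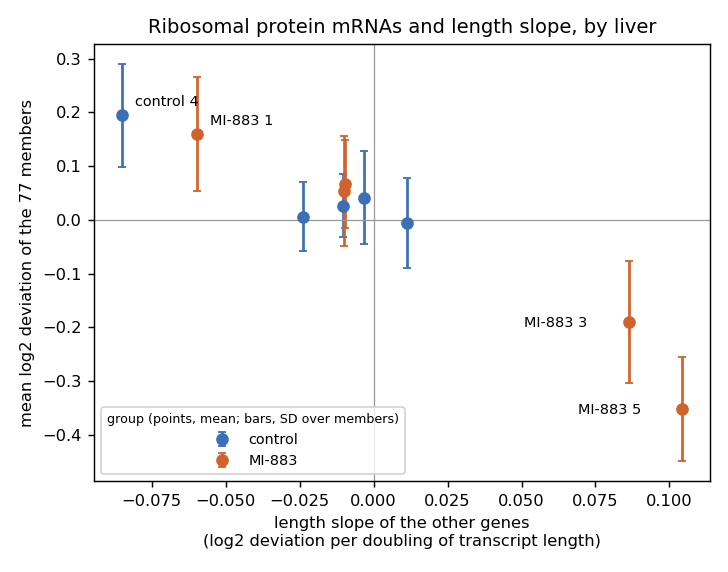
Mean log2 deviation of the 77 members (vertical axis, bars are the SD over members) against the slope of the other genes' deviations on log2 transcript length (horizontal axis) in 10 livers, controls blue and MI-883 orange. The points fall from control 4 and MI-883 1 at the upper left to MI-883 3 and MI-883 5 at the lower right (*r* = −0.966), and the remaining 6 livers lie close together.

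The same gradient was present in the group comparison of genes outside the family. When these genes were divided into 10 classes of equal size by transcript length, the median log2 fold change went from −0.11 in the shortest class (132 to 1230.5 bases, 70.5% of genes below zero) through −0.054 in the second to 0.052 in the ninth and 0.050 in the longest. The members are short, and 62 of the 77 fall in the length range of the shortest class, whose median was −0.11 beside the members' −0.10. In single livers the members and this class lay further apart. In MI-883 liver 5 the shortest class of other genes deviated by −0.16 and the members by −0.35, and in MI-883 liver 3 by −0.11 and −0.19. Among the members themselves, fold change and log2 transcript length had a correlation of −0.046 across the 77 genes (Spearman's rho 0.057).

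**Figure D5:**
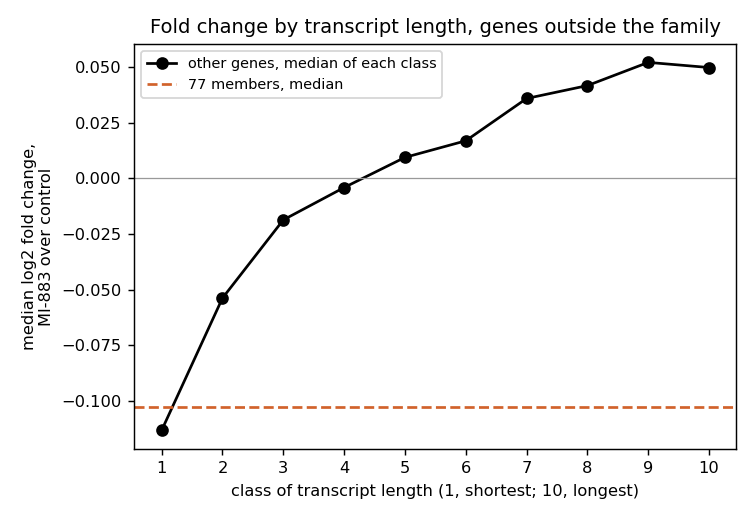
Median log2 fold change (MI-883 over control) of tested genes outside the family in 10 classes of transcript length, shortest at left, with the median of the 77 members as a dashed line. The medians climb from −0.11 to 0.052, and the line of the members (−0.10) lies nearest to the shortest class.

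When each liver's trend over transcript length was carried in the model, the median log2 fold change of the members was −0.040 and that of all tested genes −0.045. In this fit 50 members lay below and 27 above zero, where 60% of all tested genes lay below, and 0 passed the adjusted test. An unadjusted *P* under 0.05 was found for 8 members and for 17.1% of all tested genes, and the lowest adjusted *P* by edgeR was 0.168. The mean deviation of the members in MI-883 liver 5 was then −0.16 and in MI-883 liver 3 −0.074, still the 2 lowest of the 10 livers, and control liver 4 was at 0.044. Under this fit the log2 fold change of *Rps6* was −0.047, that of *Rpl11* −0.12 and that of *Rps3*, whose annotated transcript is long (1908 bases), −0.26.

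Markers of cell types also varied between the livers, not all in the order of the members. The summed level of the 3 blood markers tested (*Hba-a1*, *Hba-a2* and *Hbb-bs*) was 27.4 CPM in MI-883 liver 3 and 30.6 CPM in MI-883 liver 5, and 48.8 to 104 CPM in the other 8 livers. All 3 lay below zero in the comparison and none passed the test. Their transcripts are short as well, with a median of 628 bases. The 6 hepatocyte markers were present in every liver, with *Alb* never under 46624 CPM, and 0 of 6 passed. Of the 6 markers of Kupffer cells and leukocytes, 4 of endothelium, 4 of stellate cells and 4 of cholangiocytes, 0 passed. All 6 hepatocyte markers lay below zero (median log2 fold change −0.21), and all 4 stellate (0.33) and all 4 cholangiocyte markers (0.54) above. The summed cholangiocyte markers were highest in MI-883 livers 1 (11.6 CPM), 3 (9.62 CPM) and 5 (8.40 CPM), with 4.45 to 8.16 CPM in controls, and no marker tested was at 0 in any liver. Library totals lay between 23513665 and 36221514 counts, with lower totals in the MI-883 group on average (exact permutation *P* = 0.111, two-sided). Whether RNA quality, blood content or the makeup of the tissue had a part in the levels of the members was not tested, and in whole tissue fewer cells of a type and less RNA per cell cannot be told apart.

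Genes around the ribosome gave 1 call. In the assembly and RNA polymerase I list, 0 of 36 genes were higher and 1 was lower, where edgeR called 1.03% of all tested genes. The gene called was *Dkc1*, the pseudouridine synthase of box H/ACA particles that modifies ribosomal RNA and is mutated in dyskeratosis congenita. *Dkc1* measured 22.7, 19.2, 17.7, 22.9 and 19.9 CPM in control livers 1 to 5 and 16.6, 15.4, 14.4, 14.6 and 14.3 CPM in MI-883 livers 1 to 5. Every MI-883 liver was below every control, and the groups separated in either direction for 3.98% of all tested genes. The log2 fold change of *Dkc1* was −0.44 (SE 0.0854, adjusted *P* = 0.0264 by edgeR and 0.000827 by DESeq2). With total-count scaling the edgeR adjusted *P* was 0.0778, without MI-883 livers 3 and 5 it was 0.223, and it ranged from 0.0194 to 0.0861 as each liver was left out in turn, above 0.05 without control liver 4 or 5 or any of MI-883 livers 2 to 5. Its partners in the particle, *Gar1*, *Nhp2* and *Nop10*, had log2 fold changes of −0.011, −0.065 and −0.16 and did not pass. *Fbl*, the methyltransferase of box C/D particles, averaged 36.5 ± 2.51 and 31.8 ± 3.98 CPM (adjusted *P* = 0.298 by edgeR). *Polr1a*, the largest subunit of RNA polymerase I, averaged 18.0 ± 2.50 and 20.4 ± 1.84 CPM, and *Ncl* 209 ± 12.6 and 196 ± 11.4 CPM. The list had a median of −0.072, against 0.0045 for all tested genes. Of its 36 genes 27 lay below zero, where 49% of all tested genes did.

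The 7 ribosomal proteins and companions whose symbols fall outside the name pattern had no call. The stalk proteins *Rplp0*, *Rplp1* and *Rplp2*, which recruit elongation factors, had log2 fold changes of 0.052, −0.033 and 0.00061, and *Rack1*, the signalling scaffold of the small subunit, −0.00078. The ubiquitin-like fusion gene *Fau* was at −0.14, and *Rpl36al* at −0.12. Of 18 other mRNAs known for a TOP motif, 0 passed and 15 lay below zero (median −0.12). Of all tested genes 49% lay below zero (median 0.0045). With the length trend in the model 16 lay below and 2 above zero, where 60% of all tested genes lay below. Without MI-883 livers 3 and 5, chosen after the data were seen, 11 lay below and 7 above (median −0.0068). The abundant elongation factor *Eef1a1* averaged 3732 ± 207 and 3424 ± 311 CPM, and *Eef2* 993 ± 140 and 1011 ± 126 CPM. *Naca*, a chaperone of nascent chains at the tunnel exit, measured 218, 236, 215, 252 and 222 CPM in controls and 202, 209, 179, 210 and 160 CPM with MI-883. All of its MI-883 values were below all controls, where the groups separated in either direction for 3.98% of all tested genes. Its log2 fold change of −0.25 (SE 0.0866) did not pass (adjusted *P* = 0.185 by edgeR). *Npm1*, a nucleolar chaperone, was at −0.19 (adjusted *P* = 0.320).

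The control pathways had no call either. Of 18 genes of mTORC1 and translation initiation, 0 passed, with 10 above and 8 below zero. *Larp1*, the repressor of TOP mRNAs, averaged 174 ± 9.79 and 155 ± 18.6 CPM (log2 fold change −0.17, adjusted *P* = 0.365 by edgeR). *Deptor*, an inhibitor of mTOR, averaged 79.2 ± 12.2 and 62.6 ± 11.8 CPM (−0.34, adjusted *P* = 0.255), and *Mtor* itself 51.0 ± 2.90 and 57.9 ± 11.1 CPM (0.18, adjusted *P* = 0.450). Of 7 genes around p53, 0 passed, with 3 above and 4 below zero (median −0.025). The 3 above zero were *Mdm2*, *Trp53* and *Cdkn1a*. Their log2 fold changes were 0.069, 0.13 and 0.24, with edgeR adjusted *P* values of 0.765, 0.495 and 0.808. The error of *Cdkn1a*, SE 0.402, was the largest of these 3.

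Fold changes below zero also prevailed in a pair of mitochondrial gene families. Of 77 mitochondrial ribosomal proteins tested, 0 passed with edgeR and 1 with DESeq2 (*Mrps9*, log2 fold change −0.30, adjusted *P* = 0.0581 by edgeR and 0.0092 by DESeq2). Of the 77, 73 lay below zero and 25 had an unadjusted *P* under 0.05, with a median of −0.15. Of 75 nuclear-encoded subunits of oxidative phosphorylation, 0 passed with edgeR and 1 with DESeq2 (*Ndufv3*, log2 fold change −0.29, adjusted *P* = 0.0914 by edgeR and 0.0159 by DESeq2). Of the 75, 72 lay below zero and 31 had an unadjusted *P* under 0.05, with a median of −0.21. Of all tested genes, 49% lay below zero and 15.6% had an unadjusted *P* under 0.05, while edgeR called 1.03% and DESeq2 3.5%. The median transcript length was 1280 bases in the first family and 758 bases in the second. Among genes outside the cytosolic family, 70.5% of the shortest length class and 61.0% of the next lay below zero. With the length trend in the model the medians were −0.13 and −0.15, against −0.040 for the cytosolic members. Without MI-883 livers 3 and 5 the medians were −0.049 and −0.075, against 0.041. These livers were chosen after the data were seen and held the lowest cytosolic members. The livers at the ends were the same in the cytosolic and both mitochondrial families. Control liver 4 had the highest mean deviation (0.19 for cytosolic members, 0.17 for mitochondrial ribosomal proteins, 0.28 for oxidative phosphorylation). MI-883 livers 3 and 5 had the 2 lowest in each family. Values in single livers differed. In MI-883 liver 1 the cytosolic members deviated by 0.16 and the mitochondrial ribosomal proteins by 0.017, and in MI-883 liver 5 by −0.35 and −0.20. Across the 10 livers the mitochondrial ribosomal proteins and the length slope had *r* = −0.906, which became −0.560 without MI-883 livers 5 and 3. For oxidative phosphorylation *r* went from −0.912 to −0.642, and for the cytosolic family from −0.966 to −0.920. The values without these livers still include control liver 4 and MI-883 liver 1, where the cytosolic members were highest. The slope leaves out only the cytosolic members, so the mitochondrial genes were part of it. The difference between the families was not tested.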

How the data were processed

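Total liver RNA of 5 control and 5 MI-883 mice had been sequenced after a directional library kit, and each library was taken as 1 animal. Per the labels and the study's methods, the authors trimmed reads with fastp 0.23.0, aligned them to mm10 with STAR and deposited featureCounts counts per Entrez gene. The annotation, the strand setting and the handling of reads with several positions are not given in the sources used here. Of 16647 genes, 16644 were matched to RefSeq symbols and 3 were not. Depth is 23513665 to 36221514 counts per liver. Genes with at least 60 counts in all (13219) were fitted with edgeR 4.0.16 in R 4.3.3 (TMM, quasi-likelihood test on treatment alone), and *P* values were adjusted over all of them by Benjamini and Hochberg, with a threshold of 0.05. DESeq2 1.42.0 was an alternative. The SE is the log2 fold change over the square root of F. The exact permutation test cannot give a *P* under 0.00794. Log2 CPM used a prior count of 1. Transcript length is the median over the RefSeq-linked GENCODE M21 transcripts of a gene (13185 tested genes), and the length trend was a natural spline with 5 degrees of freedom. Shared stretches were counted on the same transcripts. The floor is 3 counts and covers counting error only.

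Members and lists were chosen with earlier results of these data known. Named genes are the 5 highest and 5 lowest members by fold change and by CPM per kb, members set by role, and genes of the lists, while genes named for following the family's mean or for their start sequence were chosen after their values were seen. The fit was also run on simulated counts. These were drawn gene by gene, without a length trend or shared variation between genes. That run does not cover the variation by liver described here. Some genes of the family and of the lists are counted but not reported here by name.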

Additional observations from a re-analysis of the deposited data

Results flagged for a closer look

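Values in 1 liver that stood apart from the other 4 of its group by Dixon's criterion were sought in 78 sets of 5, of which chance alone would flag about 3.9, and 3 were found, all in control liver 4. *Rpl26* stood at 283 CPM there, with the nearest control at 244, and *Rps18* at 388 CPM, with the nearest at 352. The mean log2 deviation of the members was 0.19 in control liver 4, with the nearest control at 0.042. Without this liver the median log2 fold change of the members was −0.068 in place of −0.10, and 60 members lay below zero in place of 70.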

How the results depend on the processing

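No member passed the adjusted edgeR or DESeq2 test under any setting tried: DESeq2 size factors, total counts, a minimum of 60 counts in every liver, no minimum, members with few shared stretches, the length trend, 1 surrogate variable, a replicate block, each liver left out, and, added after seeing the data, MI-883 livers 3 and 5 left out. The median log2 fold change of the members ranged from −0.144 to −0.0344 as each liver was left out, was −0.0644 with total counts (all genes 0.0489), and reversed to 0.0411 without MI-883 livers 3 and 5. The replicate numbers share only a number (correlations of same-numbered livers −0.121 to 0.358, with 0 of 5 livers closest to their own number), and with the replicate block 0 members passed and the median was −0.112. The groups did not overlap for 0 to 1 members as each liver was left out (*Rps27*, without MI-883 liver 1, when 13 members and 16.3% of all tested genes had an unadjusted *P* under 0.05, and 6.18% of all tested genes did not overlap), and for 2 (*Rpl13* and *Rpl6*, the latter named after its value was seen) without MI-883 livers 3 and 5, where 7.4% of all tested genes did not overlap. The correlation of the members' mean with the length slope kept its sign throughout. *Dkc1* passed in all settings with every liver but total counts.

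Among the 36 named members none passed in any setting, and the following signs turned. With 1 surrogate variable *Rpl22l1* was at −0.049, and with 60 counts in every liver *Rpl10* at 0.00048. Total counts gave *Rpl10* 0.026, *Rpl29* 0.014, *Rpl3* 0.016 and *Rpl38* 0.0062. The length trend gave *Rpl10* 0.048, *Rpl29* 0.043, *Rpl38* 0.14, *Rpl41* 0.078 and *Rps19* 0.022. Without MI-883 livers 3 and 5 the values were *Rpl10* 0.083, *Rpl10a* 0.051, *Rpl13a* 0.026, *Rpl21* 0.0034, *Rpl29* 0.12, *Rpl3* 0.074, *Rpl38* 0.12, *Rpl41* 0.14, *Rps15a* 0.038, *Rps18* 0.041, *Rps19* 0.0034, *Rps2* 0.075, *Rps4x* 0.057, *Rps6* 0.063 and *Rpsa* 0.080. The ranges over fits lacking 1 liver were −0.0725 to 0.0422 for *Rpl10*, −0.115 to 0.108 for *Rpl22l1*, −0.0938 to 0.0543 for *Rpl29*, −0.0655 to 0.0296 for *Rpl3*, −0.103 to 0.0463 for *Rpl38*, −0.0135 to 0.0619 for *Rpl4*, −0.147 to 0.0255 for *Rpl41*, −0.128 to 0.0276 for *Rps15a* and −0.121 to 0.00861 for *Rpsa*. The cause was not tested. Depth was lowest for *Rpl32l*, with 257 counts over the 10 livers.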
